A study of Rattus norvegicus with 6 samples.

Results

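The collagen chain genes were examined in cultured atrial fibroblasts of rats that received si-NC or si-GPD1L by transfection. A gene was taken as a collagen chain when its symbol had the form Col, a number, a and a number, and its deposited gene type was protein coding, which gave 44 of the 40154 genes in the table. They were grouped by structure into 11 fibrillar chains (types 1, 2, 3, 5, 11, 24 and 27), 8 basement membrane chains (types 4, 15 and 18), 9 chains of the FACIT group and 16 others. Col1a1 and Col3a1 held most of the collagen mRNA in each library. Of the 37 chains with enough counts to test, Col24a1, Col27a1 and Col9a3 were higher in si-GPD1L (8.11%, against 4.03% of all genes tested) and 0 passed the test as lower (against 2.33%). The counts were 6 higher and 10 lower without si-NC replicate 1, a control library that stood apart. Of all genes tested in that fit, 5.67% passed as higher and 4.41% as lower. When any other library was left out instead, 2 or 3 were higher and 0 lower, with 299 to 812 higher and 53 to 639 lower over all genes. The Col24a1 mean was 2.08-fold that of si-NC, Col9a3 1.84-fold and Col27a1 1.43-fold.

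The fibroblasts came from hearts of Sprague-Dawley rats 1 to 3 days old and were separated from atrial myocytes by a preplating step of 1.5 h, kept in medium with 10% fetal bovine serum and collected 24 h after transfection. The labels put 3 libraries in each group, and all 6 also carry the treatment label "Atrial differentiation", which they do not explain. si-NC is the control siRNA and si-GPD1L targets glycerol-3-phosphate dehydrogenase 1-like. The comparison asks how the fibroblasts' mRNA differs when Gpd1l is targeted. Whether the 3 libraries of a group are separate cultures or animals, and whether the last digit of si-GPD1L1 to si-GPD1L3 numbers replicates or different siRNAs, is not given in the sources used here, so the p-values measure the spread between these libraries, which may be technical.

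Collagens are trimers of alpha chains wound into a triple helix. Fibrillar collagens are secreted as procollagens, trimmed at both ends, packed into fibrils and crosslinked, and types I and III form most of the fibrillar scaffold of the heart. Type IV collagen makes the network of basement membranes, and type VI forms beaded filaments around cells. FACIT collagens, fibril-associated collagens with interrupted triple helices, sit on the surface of fibrils. Cardiac fibroblasts are the main source of interstitial collagen in the heart.

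The label check came first. Gpd1l had normalized counts (counts scaled by TMM to the mean library total) of 262, 333 and 314 in si-NC, against 220, 208 and 303 under the si-GPD1L label. The value of si-GPD1L replicate 3 lay inside the si-NC range, and the difference of -0.31 on the log2 scale (SE 0.15) did not pass the test (edgeR adjusted p = 0.234). Directions below are therefore those of the libraries labelled si-GPD1L. Library totals ran from 16892255 to 20149732 counts. Fibroblast markers were present, with all 8 of the list tested and summed normalized counts of 144241 to 156506 in si-NC against 131643 to 141679 in si-GPD1L. Of these, 0 passed as higher and 3 as lower (37.5%, against 2.33% of all genes), Dcn (log2 -0.66), Lum (-0.77) and Fap (-0.82).

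Signs of RNA make-up differed between libraries, and si-NC replicate 1 stood apart. In si-NC replicate 1, mRNAs of the 13 mitochondrial genes took 3.48% of the counts, against 2.07% to 2.41% in the other 5 libraries. Genes of at most 1500 bases deviated there by a median of 0.16 on the log2 scale from the mean of the libraries, and genes over 5000 bases by -0.13. Its count of Rmrp, a short structural RNA, was 2892 against 18 to 47 in the other 5 libraries. Rn7sl1, the RNA of the signal recognition particle, followed the groups, with 4584, 1331 and 35190 counts in si-NC, the highest in replicate 3, and 7, 250 and 23 in si-GPD1L. The count of chains past the test is therefore also given without si-NC replicate 1 and with each library's trend on gene length removed. The length fit was chosen after the data were seen, and the part of these signs in the results was otherwise not tested.

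The levels of the chains spanned several orders of magnitude. On the TPM scale, which divides by gene length and so allows genes to be set side by side, 2 chains had a mean over 10000, 16 (these 2 included) over 100, 17 from 1 to 100 and 11 under 1. Col1a1, the alpha-1 chain of type I collagen, had TPM levels of 12814, 18584 and 19141 in si-NC and 21238, 21155 and 20985 in si-GPD1L. Col3a1, which alone makes type III collagen, had TPM levels of 12536, 15585 and 16185 in si-NC and 11827, 12494 and 14694 in si-GPD1L. The 2 genes' TPM ranges overlapped in si-NC, while in si-GPD1L each Col1a1 value lay above each Col3a1 value.

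**Figure D1:**
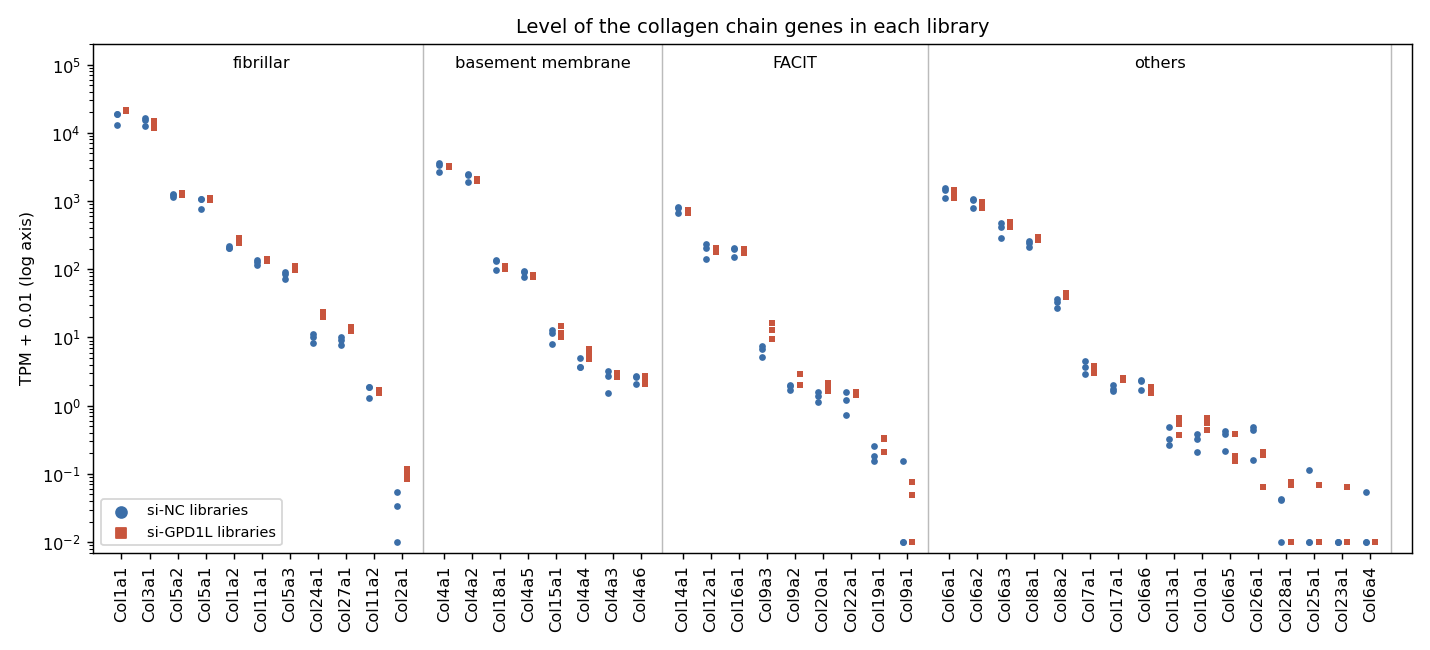
TPM (expression per gene length, log axis, with 0.01 added so that values of 0 can be drawn) of the 44 collagen chains in each of 3 si-NC libraries (circles) and 3 si-GPD1L libraries (squares), by structural group. Col1a1 and Col3a1 lie above 10000 TPM in every library, and 11 chains have a mean under 1.

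After them came the main basement membrane chains, Col4a1 at a mean TPM of 3189 and Col4a2 at 2143. They were followed by Col6a1 of the beaded filaments at 1309, Col5a2 and Col5a1 of type V collagen, which is built into type I fibrils, at 1227 and 1020, and Col6a2 at 915. Over the libraries, the TPM ranges of Col6a1 and Col5a2 overlapped, while each Col5a2 value lay above each Col5a1 value. Col14a1 led the FACIT group at a mean TPM of 733. The 3 highest chains held 78.3% to 80.7% of the summed TPM of the family and the 10 highest 96.8% to 97.0%.

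The size of the family as a whole showed no clear difference between the groups with all 6 libraries. The chains took 9.08%, 11.1% and 11.2% of the gene counts in si-NC and 10.3%, 10.4% and 10.9% in si-GPD1L. The groups overlapped only through si-NC replicate 1, and both other si-NC values lay above each si-GPD1L value. The difference of 0.062 percentage points in the means was within the spread (exact two-sided permutation test, p = 1, where 3 against 3 cannot go below 0.1). Without si-NC replicate 1 the difference was -0.63 percentage points (p = 0.2 by the same exact test) and without si-GPD1L replicate 3 it was -0.13. With so few libraries this test cannot exclude a difference. Col1a1 formed 35.8%, 38.9% and 39.3% of the collagen TPM in si-NC and 47.3%, 46.4% and 43.1% in si-GPD1L. Col3a1 formed 35.0%, 32.6% and 33.2% in si-NC and 26.3%, 27.4% and 30.2% in si-GPD1L. For both chains the groups did not overlap on this scale, and these percentages were not tested on their own. Because the samples are bulk RNA, fewer cells of a type and less RNA per cell cannot be told apart for any value here.

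**Figure D2:**
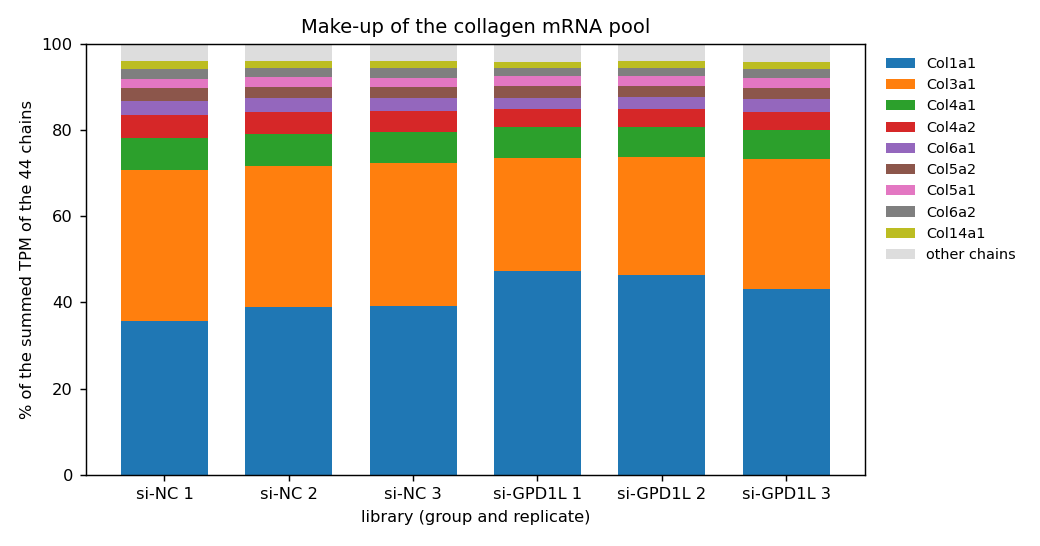
Percentage of the summed TPM of the 44 chains taken by each of the 9 chains with the highest mean TPM and by all other chains together, in each library (stacked bars). The Col1a1 segment runs from 35.8% to 39.3% in si-NC against from 43.1% to 47.3% in si-GPD1L, and the Col3a1 segment from 32.6% to 35.0% and from 26.3% to 30.2%.

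Across the 37 tested chains, 21 had a log2 fold change (si-GPD1L minus si-NC) above 0 and 16 below, with a median of 0.10 against a median of -0.0049 over the 14852 genes tested. At an adjusted p under 0.05, 3 chains (8.11%) were higher, where 4.03% of all genes tested were, and 0 were lower, where 2.33% of all genes were. At an unadjusted p under 0.05 there were 15 chains, 10 higher and 5 lower, against 22.4% of all genes. Beside the 3 higher and 0 lower chains of the quasi-likelihood test (599 and 346 of all genes), 2 other tests were run. DESeq2's Wald test called 4 chains higher and 2 lower (683 and 492 of all genes). edgeR's exact test called 4 higher and 1 lower (872 and 656 of all genes). The groups did not overlap for 11 chains with higher values in si-GPD1L (15.1% of all genes) and for 3 with lower values (13.9% of all genes). The 11 were Col1a1, Col1a2, Col5a3, Col24a1, Col27a1, Col9a3, Col20a1, Col8a1, Col8a2, Col10a1 and Col17a1, and the 3 were Col4a2, Col4a5 and Col6a6.

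Without si-NC replicate 1 the counts of chains changed more than those of all genes. That fit sets only si-NC replicates 2 and 3 against the 3 si-GPD1L libraries. When any other library was left out instead, 0 chains passed as lower. Without si-NC replicate 1, 6 chains passed as higher (16.2%, against 5.67% of all genes): Col24a1, Col27a1, Col9a3, Col1a1, Col1a2 and Col5a3. As lower, 10 chains passed (27.03%, against 4.41% of all genes): Col3a1, Col4a1, Col4a2, Col4a5, Col18a1, Col6a1, Col6a2, Col6a6, Col12a1 and Col14a1. The median log2 fold change of the 37 chains was then -0.026. With the length trend removed and all 6 libraries kept, 4 chains passed as higher (5.02% of all genes), Col8a2 beside the 3 above, and 5 as lower (3.46% of all genes), Col3a1, Col4a2, Col4a5, Col18a1 and Col14a1, with a median of 0.051.

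**Figure D3:**
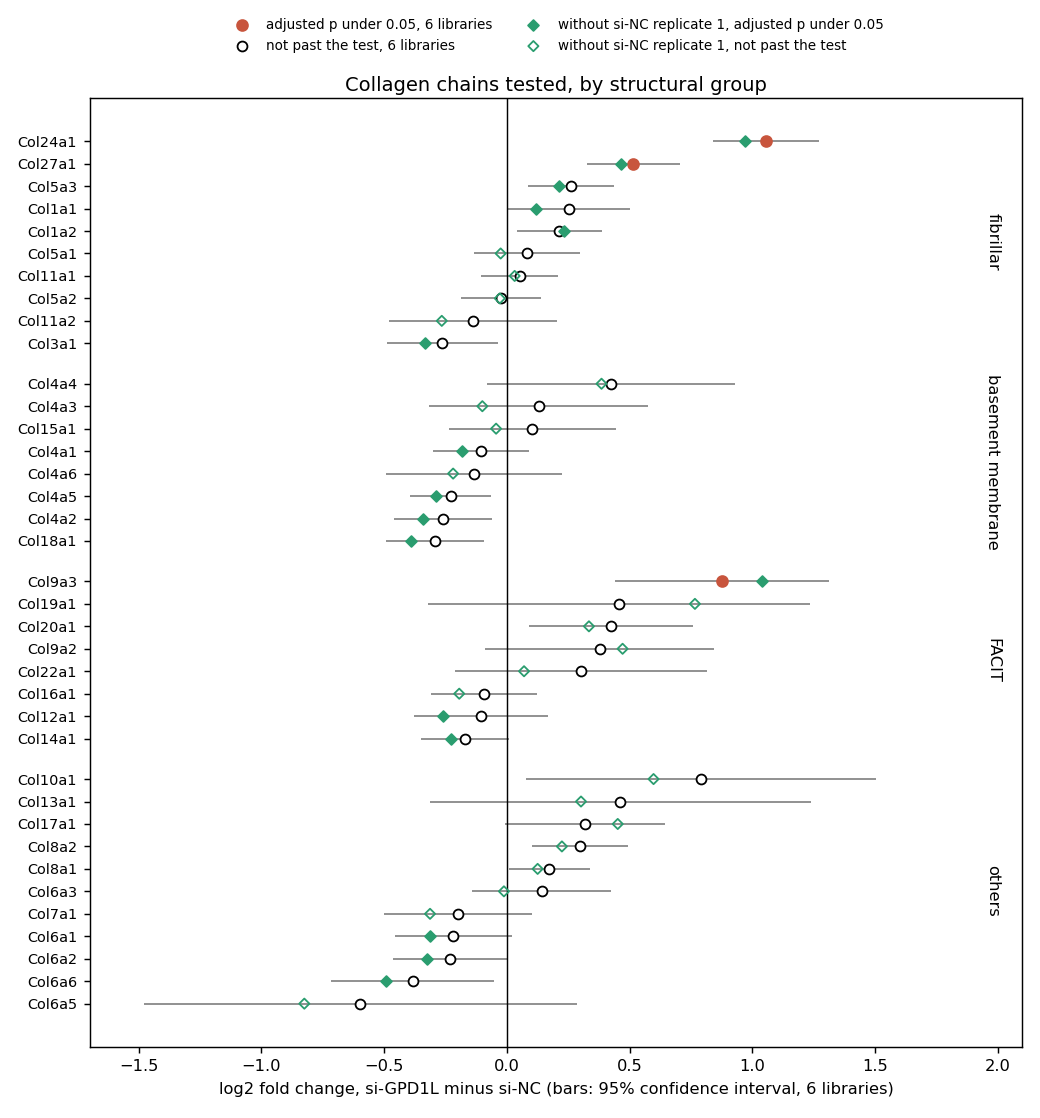
Log2 fold change (si-GPD1L minus si-NC) of the 37 tested chains by structural group, with 95% confidence intervals from the quasi-likelihood fit of 6 libraries (circles, filled where the adjusted p was under 0.05) and the value without si-NC replicate 1 (diamonds, filled likewise). Col24a1, Col27a1 and Col9a3 are filled in both fits, and 10 chains are filled below 0 only as diamonds.

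Col24a1 encodes a fibrillar chain that is made at low level and is known mainly from developing bone and cornea (rn6 chr2:251200686-251436254, forward strand). Its normalized counts were 364, 457 and 418 in si-NC and 807, 833 and 931 in si-GPD1L. Every si-GPD1L library was above every si-NC library, and the log2 fold change of 1.05 (SE 0.10, 95% confidence interval 0.84 to 1.27) had an adjusted p of 2.1e-05. It was past the threshold under all 16 alternative fits. In the fit of all 6 libraries it was the only chain past the test with a log2 fold change over 1, while without si-NC replicate 1 it was 0.97 and Col9a3 was 1.039. On the TPM scale its level went from a mean of 9.86 ± 1.49 to 21.6 ± 1.72 (SD, n = 3), still far under that of Col1a1.

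Col27a1, a long fibrillar chain known from cartilage (rn6 chr5:79054004-79172442, forward strand), had normalized counts of 552, 651 and 583 in si-NC and 789, 873 and 889 in si-GPD1L. The groups did not overlap, and the log2 fold change was 0.52 (SE 0.088, adjusted p = 0.0038), past the threshold under all 16 alternatives. Each of its 3 annotated transcripts had counts 1.40 to 1.43 times higher in si-GPD1L after scaling, but the transcripts share reads. Its mean TPM was 8.97 ± 1.07 in si-NC and 13.5 ± 0.93 in si-GPD1L (SD, n = 3).

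The sequences upstream of both genes are shown because these are the fibrillar chains that passed the test, with that of Col1a2 beside them as a chain of the abundant type I collagen. Each is the 250 bases before the annotated RefSeq start in GRCr8, a later rat build than the rn6 of the deposited tables, and capitals mark, on either strand, the letters TATAAA of the TATA box, the letters CCAAT of the box of that name and the letters GGGCGG of the GC box. Col24a1 lies at chr2:236872384-236872633, the first of its 3 starts in the table, Col27a1 at chr5:81662658-81662907 and Col1a2 at chr4:33518307-33518556, all on the forward strand.
Col24a1: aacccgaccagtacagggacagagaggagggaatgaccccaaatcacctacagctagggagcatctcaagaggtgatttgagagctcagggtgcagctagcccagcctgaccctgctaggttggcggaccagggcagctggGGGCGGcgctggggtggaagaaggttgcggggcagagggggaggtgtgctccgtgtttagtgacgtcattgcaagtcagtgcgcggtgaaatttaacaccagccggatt
Col27a1: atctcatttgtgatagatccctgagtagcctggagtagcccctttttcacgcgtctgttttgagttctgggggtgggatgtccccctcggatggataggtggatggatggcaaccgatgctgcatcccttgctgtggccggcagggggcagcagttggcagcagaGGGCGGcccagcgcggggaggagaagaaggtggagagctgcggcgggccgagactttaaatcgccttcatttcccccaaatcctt
Col1a2: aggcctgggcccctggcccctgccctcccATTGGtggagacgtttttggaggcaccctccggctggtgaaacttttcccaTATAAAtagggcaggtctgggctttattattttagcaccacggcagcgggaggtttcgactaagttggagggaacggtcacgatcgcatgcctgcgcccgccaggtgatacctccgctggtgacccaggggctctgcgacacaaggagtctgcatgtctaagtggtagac
In this window Col24a1 and Col27a1 each held 1 GGGCGG and none of the other letters searched, while Col1a2 held 1 TATAAA and 1 CCAAT, the latter on the opposite strand, and no matches overlapped. Among the 38 promoters of the 35 chains found in the RefSeq table, GGGCGG occurred in 52.6%, CCAAT in 31.6% and TATAAA in 10.5%. Among all 33469 promoters of the table the shares were 30.5%, 34.02% and 12.9%. The 4 chains with a TATAAA were Col1a2, Col10a1, Col13a1 and Col17a1. These are matches of letters and say nothing of binding.

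Col9a3 encodes a chain of type IX collagen, a FACIT collagen of cartilage (rn6 chr3:176102287-176124839, forward strand). Its normalized counts were 164, 139 and 104 in si-NC and 317, 187 and 247 in si-GPD1L. The groups did not overlap but both were wide, and the log2 fold change was 0.88 (SE 0.20, adjusted p = 0.0234). The call was lost without si-NC replicate 2 (adjusted p = 0.0713), without si-GPD1L replicate 1 (0.128) or 3 (0.0734), and with transcript counts summed to genes (0.0614). In that sum, reads shared by its transcripts count more than once. Its partner chain Col9a2 had a log2 fold change of 0.38 (SE 0.21, adjusted p = 0.327) at a mean TPM of 2.25, and the third partner, Col9a1, had 0 to 4 counts a library and was not tested.

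Markers of chondrocytes and endothelial cells were looked at beside these chains. Of the 7 chondrocyte markers 6 were matched and 4 were tested. Of these 4, 1 passed as higher (25%, against 4.03% of all genes). It was Sox9, a regulator of cartilage collagen genes that other cells also express. Its normalized counts were 1944 ± 165 in si-NC and 3089 ± 469 in si-GPD1L (SD, n = 3, log2 0.67, adjusted p = 0.00208). The summed normalized counts of the list were 2201 to 2670 in si-NC against 3185 to 4125 in si-GPD1L, most of them from Sox9. Acan, the main cartilage proteoglycan, was present at 478 ± 89.7 normalized counts in si-NC and 508 ± 8.45 in si-GPD1L and did not pass (log2 0.09, adjusted p = 0.719). Matn3 and Hapln1 did not pass either (log2 -0.25 and 0.72, adjusted p = 0.722 and 0.245). Col2a1, the main cartilage collagen, had 0 to 4 counts a library and Matn1 0 to 1. Comp had 4, 16 and 12 counts in si-NC and 3, 5 and 4 in si-GPD1L. These genes were not tested in the fit of all 6 libraries. Without si-NC replicate 1, 1 marker of the chondrocyte list passed as higher and 1 as lower, against 5.67% and 4.41% of all genes. Of the 10 endothelial markers 9 were tested, all with a log2 fold change above 0. Among the 9, 4 passed as higher (44.4%, against 4.03% of all genes), Pecam1, Cdh5, Tie1 and Plvap. The summed normalized count of the list was 855 to 1004 in si-NC against 1213 to 1392 in si-GPD1L. The part of these cells in the collagen differences was not tested.

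**Figure D4:**
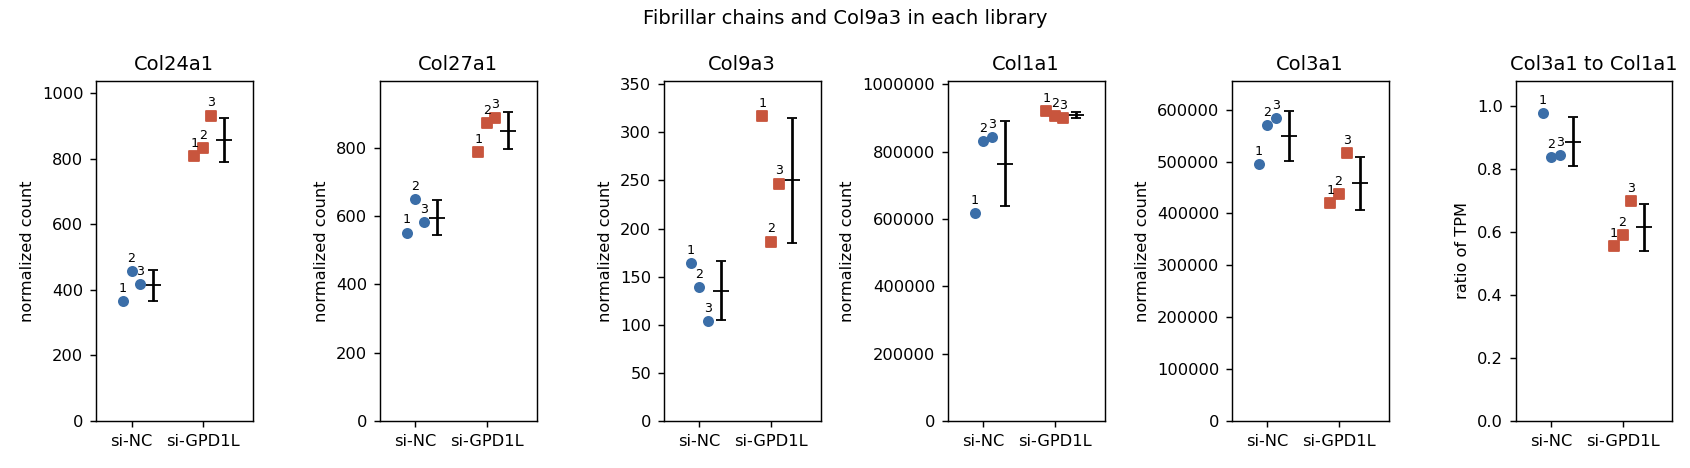
Normalized counts of Col24a1, Col27a1, Col9a3, Col1a1 and Col3a1 and the ratio of Col3a1 to Col1a1 in TPM, for each of 3 si-NC (circles) and 3 si-GPD1L (squares) libraries, numbered by replicate, with bars for the mean and SD. Of the 6 panels, the groups overlap only for Col3a1, and the ratio runs from 0.839 to 0.978 in si-NC against from 0.557 to 0.700 in si-GPD1L.

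Among the abundant fibrillar chains, Col1a1 (rn6 chr10:82745801-82762790, forward strand) had normalized counts of 617623, 830764 and 842412 in si-NC and 919651, 905526 and 901084 in si-GPD1L. Every si-GPD1L library was above every si-NC library, with the lowest value in si-NC replicate 1, and the log2 fold change of 0.25 (SE 0.11) did not pass the test (adjusted p = 0.219). Without that replicate it was 0.12 and passed (adjusted p = 0.00607). Col3a1 (rn6 chr9:52023295-52059221, forward strand) had normalized counts of 494599, 570290 and 583060 in si-NC and 419221, 437764 and 516487 in si-GPD1L. The highest si-GPD1L value overlapped the si-NC range, and the log2 fold change of -0.26 (SE 0.10) did not pass (adjusted p = 0.156). Without si-NC replicate 1 it was -0.33 (adjusted p = 0.00043), and with the length trend removed -0.28 (adjusted p = 0.0371).

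The ratio of Col3a1 to Col1a1 compares the chains of types III and I within a library. In TPM it was 0.978, 0.839 and 0.846 in si-NC and 0.557, 0.591 and 0.700 in si-GPD1L. The groups did not overlap, and the mean log2 ratio was lower in si-GPD1L by -0.53, or by -0.46 without si-NC replicate 1. An exact two-sided permutation test gave p = 0.1, the smallest that 3 against 3 allows, and 0.3 after adjustment over the 6 ratios compared.

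Col1a2 encodes the alpha-2 chain that joins Col1a1 in the usual type I trimer. Its normalized counts were 7505, 7113 and 7319 in si-NC and 8029, 8055 and 9338 in si-GPD1L. The groups did not overlap, but the log2 fold change of 0.21 (SE 0.080) did not pass (adjusted p = 0.137). The TPM of Col1a1 was 63.1, 89.5 and 88.2 times that of Col1a2 in si-NC and 87.8, 86.2 and 74.0 times in si-GPD1L, with overlapping groups (exact permutation test, p = 1). Type I trimers are known to hold more alpha-1 than alpha-2 chains, but by a far smaller factor, and the cause of so wide a gap in these mRNA counts was not tested.

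The type V and XI chains join fibrils of types I and II and regulate their width. Col5a1 had normalized counts of 51772, 66976 and 64907 in si-NC and 64482, 62756 and 67205 in si-GPD1L. Col5a2 had 56728, 59106 and 55362 in si-NC and 55361, 54936 and 58054 in si-GPD1L. Both overlapped, with log2 fold changes of 0.08 (95% confidence interval -0.13 to 0.30) and -0.02 (-0.19 to 0.14). Their TPM ratio overlapped as well, at 0.679 to 0.872 in si-NC against 0.850 to 0.867 in si-GPD1L (exact permutation test, p = 0.5). Col5a3, the third type V chain, had a log2 fold change of 0.26 (SE 0.080, adjusted p = 0.0748) with no overlap, and passed without si-NC replicate 1 (adjusted p = 0.0366). Col11a1 had 0.05 (95% confidence interval -0.10 to 0.21).

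Col11a2 is a type XI chain that the study linked to cardiac fibrosis. It was among the genes raised in atrial tissue of rats lacking the microRNA under study, and was then measured in atrial myocytes. Tissue, cells and treatment there differ from those here, so the values below do not test that result. In these fibroblasts Col11a2 was scarce, at a mean TPM of 1.68 in si-NC and 1.60 in si-GPD1L. Its normalized counts were 95.01, 127 and 126 in si-NC and 99.3, 107 and 109 in si-GPD1L. The groups overlapped, and the log2 fold change of -0.14 (95% confidence interval -0.48 to 0.20, adjusted p = 0.657) did not pass under any of the 16 alternatives. Over the 10 tested fibrillar chains, 7 were above 0 and 3 below with a median log2 fold change of 0.15. Of the 10, 2 passed, both as higher, where 4.03% of all genes did. The median was 0.07, with 6 above 0 and 4 below, without si-NC replicate 1.

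The 8 basement membrane chains had no call, where 4.03% of all genes passed as higher and 2.33% as lower. Their median log2 fold change was -0.12, with 3 above 0 and 5 below, where 49.1% of all genes were above 0. The median was -0.20 without si-NC replicate 1, with 1 above 0 and 7 below, where Col15a1 was -0.04 and Col4a3 -0.10. Col4a1 had normalized counts of 146656, 179810 and 168856 in si-NC and 153020, 151381 and 156063 in si-GPD1L. Its partner Col4a2, which joins it in the common type IV trimer, had 101398, 125171 and 117942 in si-NC and 94396, 93085 and 100286 in si-GPD1L. Col4a1 overlapped between the groups and Col4a2 did not, with log2 fold changes of -0.11 (SE 0.090, adjusted p = 0.532) and -0.26 (SE 0.092, adjusted p = 0.118). Both passed without si-NC replicate 1, at -0.18 (adjusted p = 0.00306) and -0.34 (adjusted p = 1.6e-05).

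The balance of the 2 chains was tight within each group. The TPM ratio of Col4a1 to Col4a2 was 1.42, 1.41 and 1.41 in si-NC and 1.59, 1.60 and 1.53 in si-GPD1L. It did not overlap between the groups, and the log2 difference of 0.15 was 0.14 to 0.18 when a library was left out. The exact two-sided permutation p was 0.1, the smallest possible, and 0.3 after adjustment over the 6 ratios.

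These 2 genes are neighbours that point away from each other. In the deposited rn6 coordinates Col4a2 (chr16:83386388-83522169, reverse strand) and Col4a1 (chr16:83522162-83632153, forward strand) overlap by 8 bases at their starts, and whether the counting used strand is not given in the sources used here. In the RefSeq annotation of GRCr8 the starts are separated by 76 bases at chr16:84885521-84885596, shown on the forward strand, from the Col4a2 start to that of Col4a1, since both chains are transcribed from its ends.
Col4a1-Col4a2 shared interval: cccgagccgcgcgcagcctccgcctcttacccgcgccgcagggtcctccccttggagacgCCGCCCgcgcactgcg
The capitals mark 1 GGGCGG, read on the opposite strand, and 78.9% of the bases are G or C. The other type IV genes are paired in the same head-to-head way in rn6, Col4a4 with Col4a3 with 344 bases between them on chromosome 9 and Col4a6 with Col4a5 with 1257 between them on chromosome X. Their log2 fold changes were 0.42 and 0.13 for the first of these pairs and -0.13 and -0.23 for the other, none past the test. Col4a5 came nearest (SE 0.076, adjusted p = 0.0973, no overlap).

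Col18a1, a basement membrane chain whose end is cleaved off as endostatin, had normalized counts of 4094, 5168 and 4973 in si-NC and 3700, 3767 and 4146 in si-GPD1L. The groups overlapped through si-NC replicate 1, and the log2 fold change was -0.29 (SE 0.092, adjusted p = 0.0800). It passed under 5 of the 16 alternatives, among them the fits without si-NC replicate 1 (adjusted p = 0.000135) and with the length trend removed (0.0225). Col15a1 had a log2 fold change of 0.10 (95% confidence interval -0.24 to 0.44). Its count is uncertain, since a locus annotated as Col15a1-like had 369 to 560 counts a library of its own.

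Of the FACIT chains 8 were tested, with 5 above 0 and 3 below and a median log2 fold change of 0.34, or 0.20 without si-NC replicate 1. The abundant ones were at or below 0. Col14a1, which binds type I fibrils, had normalized counts of 34618, 39003 and 39053 in si-NC and 31449, 33451 and 35127 in si-GPD1L. Col12a1, found on fibrils of tissues under load, had 14809, 19876 and 22376 in si-NC and 16523, 17485 and 18968 in si-GPD1L. Both overlapped, with log2 fold changes of -0.17 (SE 0.083, adjusted p = 0.245) and -0.11 (SE 0.13, adjusted p = 0.669), and both passed as lower without si-NC replicate 1 (-0.23 and -0.26, adjusted p = 0.00537 and 0.00911). Without si-NC replicate 3, the Col12a1 value was 0.03. Col16a1 had normalized counts of 6758, 8662 and 8266 in si-NC and 7068, 7006 and 8128 in si-GPD1L, which overlapped (log2 -0.09, SE 0.099). The scarce Col19a1, Col20a1 and Col22a1, at mean TPM levels of 0.23 to 1.63, had log2 fold changes of 0.30 to 0.46 and did not pass.

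Among the others, the type VI chains surround cells with beaded filaments. Col6a1 had normalized counts of 37409, 45359 and 46840 in si-NC and 33655, 35186 and 42567 in si-GPD1L. Col6a2, its neighbour on chromosome 20, had 33568, 41578 and 41442 in si-NC and 30130, 31722 and 37472 in si-GPD1L. Both overlapped, with log2 fold changes of -0.22 (SE 0.11, adjusted p = 0.265) and -0.23 (SE 0.11, adjusted p = 0.225). Their TPM ratio was 1.40 to 1.45 in si-NC against 1.42 to 1.46 in si-GPD1L, a narrow range over all 6 libraries in which the groups overlapped (exact permutation test, p = 0.5). Both passed as lower without si-NC replicate 1 (-0.31 and -0.33, adjusted p = 0.00574 and 0.00255).

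Col6a3, the third chain of the common type VI trimer, had normalized counts of 25805, 34628 and 39294 in si-NC and 36286, 33611 and 40111 in si-GPD1L. The groups overlapped, and the log2 fold change was 0.14 (95% confidence interval -0.14 to 0.43) with all libraries and -0.01 without si-NC replicate 1. The alternative chain Col6a6 had -0.38 (SE 0.15, adjusted p = 0.159) with no overlap at a mean TPM of 1.93, and Col6a5 had -0.60 (SE 0.41) at 0.28. Both lie in tandem on chromosome 8.

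The short-chain collagens of types VIII and X form hexagonal networks. Col8a1 had normalized counts of 4978, 5366 and 5636 in si-NC and 6035, 5683 and 6291 in si-GPD1L. Col8a2 had 964, 1207 and 1061 in si-NC and 1410, 1236 and 1330 in si-GPD1L. Neither overlapped, and the log2 fold changes were 0.17 (SE 0.076, adjusted p = 0.205) and 0.30 (SE 0.090, adjusted p = 0.0688). Col8a2 was the chain nearest to the threshold, and it passed with the length trend removed (adjusted p = 0.0477) and under 4 of the 16 alternatives in all. Their TPM ratio overlapped, at 6.63 to 7.91 in si-NC against 6.38 to 7.05 in si-GPD1L (exact permutation test, p = 0.3). Col10a1, the collagen of hypertrophic cartilage, had 15.2 ± 4.11 normalized counts in si-NC and 26.3 ± 5.33 in si-GPD1L (SD, n = 3), without overlap (log2 0.79, SE 0.33, adjusted p = 0.178).

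Of the remaining chains of this group, Col7a1 of anchoring fibrils had a log2 fold change of -0.20, and the membrane-spanning Col13a1 and Col17a1 had 0.46 and 0.32, none past the test. The median over the 11 tested chains of the group was 0.14, with 6 above 0 and 5 below, and without si-NC replicate 1 it was -0.01, with 5 above and 6 below. The 7 chains not tested were Col2a1, Col9a1, Col6a4, Col23a1, Col25a1, Col26a1 and Col28a1, each with at most 10 counts in any library. Col26a1 was the highest of them at 0.15 to 0.47 TPM in si-NC against 0.054 to 0.20 in si-GPD1L. Where a library had 0 counts, up to 3 are allowed by counting error alone, so levels this low could not be compared at this depth.

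Genes that make and handle collagen were read from lists of processing enzymes, receptors and collagenases. Of the 34 genes for processing and crosslinking 32 were tested, and 2 passed as higher (6.25%, against 4.03% of all genes) and 1 as lower (3.13%, against 2.33%), with a median log2 fold change of 0.09. Colgalt2, which adds galactose to hydroxylysine, went from 41.0 ± 6.49 to 71.6 ± 4.61 normalized counts (SD, n = 3, log2 0.80, adjusted p = 0.0353). Loxl3, a lysyl oxidase that crosslinks collagen, went from 865 ± 22.1 to 1139 ± 147 (log2 0.40, adjusted p = 0.0240). Adamts3, a protease that removes the procollagen amino end, fell from 371 ± 86.8 to 205 ± 32.9 (log2 -0.85, adjusted p = 0.0104). The collagen chaperone Serpinh1 and the oxidase Lox did not pass, at log2 0.12 (SE 0.075) and -0.05 (SE 0.078).

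Of 10 collagen receptors 8 were tested, and 1 passed as higher (12.5%, against 4.03% of all genes) and 0 as lower. It was Itga1, the alpha-1 integrin subunit that pairs with Itgb1 to bind collagen (log2 0.41, SE 0.11, adjusted p = 0.0434). Itga2 (log2 0.51, adjusted p = 0.0786) and the endocytic receptor Mrc2 (log2 0.28, adjusted p = 0.161) followed without passing. Of 7 collagenases and gelatinases 5 were tested, and 1 of the 5 passed as lower (against 2.33% of all genes) and 0 as higher. Mmp14, a membrane-bound collagenase, fell from 27447 ± 1423 to 22321 ± 954 normalized counts (SD, n = 3, log2 -0.30, adjusted p = 0.0410). Ctsk (log2 -0.28, adjusted p = 0.0731) and Mmp9 (log2 0.31, adjusted p = 0.528) did not pass. Without si-NC replicate 1, the genes past the test were 4 higher and 2 lower for processing, 2 higher and 1 lower for receptors and 0 higher and 2 lower for collagenases. In that fit 5.67% of all genes passed as higher and 4.41% as lower.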

How the data were processed

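Poly-A RNA libraries from 6 samples of rat atrial fibroblasts were analysed. Per the labels, the authors' processing notes name bcl2fastq, HISAT2 2.1.0, HTSeq 0.12.4 and the rn6 build, with no role or order. The authors deposited whole-number read counts per gene and per transcript without normalization, and TPM values per gene. Counts were tested and TPM, which is per length, was used only to set levels of genes side by side. The deposited comparison (fold changes and p-values) and the GO and KEGG tables were not used.

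With R 4.3.3 and edgeR 4.0.16, filterByExpr kept 14852 genes, TMM set the normalization, and glmQLFit and glmQLFTest compared the groups, with Benjamini-Hochberg adjustment over all genes tested. A call is an adjusted p under 0.05. SE is the absolute log2 fold change over the root of F. The shares and ratios were compared by exact permutation tests (scipy 1.17.1). On simulated counts of 14657 genes, the fit recovered 100 of 100 genes changed by 1 on the log2 scale and called 7 unchanged ones. The simulation gave every gene the same dispersion, changed only genes above the median level and held no library that stood apart. It checks that the fit runs as intended and does not give the error rates in these data. The members and gene lists were chosen with earlier results of these data known. Per-library values are given for chains past the test, chains the study names, the 3 highest chains in TPM of each group and the chains of the 6 ratios. Of each supporting list, values are given for the 3 genes with the smallest adjusted p. Other genes named were chosen after their values were seen. Upstream sequences came from RefSeq (GRCr8), where 35 of the 44 chains matched. Alternatives were other scaling factors, filters, tests and thresholds, a block for the replicate number, the omission of each library in turn, transcript counts and removal of each library's length trend. Intervals and limits at 0 counts cover counting error or library spread in these libraries only. DESeq2 was version 1.42.0. Figures were drawn with matplotlib 3.10.9.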

Additional observations from a re-analysis of the deposited data

How the results depend on the processing

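The 16 alternative fits gave 320 values for the 20 chains given by library, of which 286 kept their direction and side of the threshold, 26 newly passed and 4, all of Col9a3, no longer passed. Direction turned in 4, when a library was left out. The ranges over the omitted libraries were -0.052 to 0.00042 for Col5a2 (turned without si-NC replicate 2), -0.026 to 0.15 for Col5a1 and -0.012 to 0.28 for Col6a3 (without si-NC replicate 1) and -0.26 to 0.025 for Col12a1 (without si-NC replicate 3). The 3 higher and 0 lower chains became 6 and 4 with no filter beyond 1 count, where all genes gave 1055 higher and 874 lower against 599 and 346. DESeq2's Wald test called 2 chains lower, and 492 of all genes lower. edgeR's exact test called 1 lower, and 656 of all genes lower. Removal of the length trend gave 5 lower chains, and 514 of all genes lower. Summed transcript counts, in which shared reads can count more than once, gave 198 lower genes. With an absolute log2 fold change over 1 required as well, 1 chain, 220 higher and 20 lower genes were left, and at an adjusted p under 0.01, 299 higher and 65 lower genes. With each library left out in turn, higher chains ran from 2 to 6, lower chains from 0 to 10, higher genes from 299 to 861 and lower genes from 53 to 670. Lower chains were 0 in each of these fits but the 1 without si-NC replicate 1. The ranges were -0.63 to 0.43 percentage points for the share of counts, and as log2 differences -0.11 to 0.14 for Col1a1 to Col1a2, -0.63 to -0.46 for Col3a1 to Col1a1, 0.0028 to 0.18 for Col5a1 to Col5a2, -0.0021 to 0.023 for Col6a1 to Col6a2 and -0.21 to -0.081 for Col8a1 to Col8a2. The median of the chains ran from -0.026 to 0.21. The causes were not tested. Same-numbered libraries did not deviate together (correlations -0.012, -0.0059 and 0.043). With so few libraries this cannot show whether same-numbered samples were prepared together, and the main fit did not pair them. The replicate block gave 560 higher and 361 lower genes and 3 higher and 0 lower chains. Upper-quartile factors gave 526 higher and 455 lower genes and a chain median of 0.08. The 7 chains with at most 10 counts could not be compared at this depth.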

Other observations

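Beside the 44 chains, 8 loci without a collagen symbol were described as collagen chains in the gene table. A locus described as Col15a1-like had 418, 419 and 512 counts in si-NC and 369, 477 and 560 in si-GPD1L (log2 0.04, adjusted p = 0.884), against a similar count of Col15a1 itself. A locus of 984 bases described as like the type I alpha-1 chain had 157, 140 and 125 counts in si-NC and 132, 159 and 121 in si-GPD1L (log2 -0.05, adjusted p = 0.866). The other 6, among them copies described as like Col4a3 and Col11a2, had 0 to 13 counts a library, and reads of Col4a3 and Col11a2 may be split with them.

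Markers of other cell types gave these values. The 9 cardiomyocyte markers summed to 34836 to 36636 normalized counts in si-NC against 31023 to 33980 in si-GPD1L. Of the 9, 3 had an unadjusted p under 0.05, where 22.4% of all genes did. The 8 macrophage markers summed to 2828 to 3058 and 2414 to 3491, and 0 had an unadjusted p under 0.05. Of the 7 smooth muscle and pericyte markers, 2 passed as higher (28.6%, against 4.03% of all genes), Cspg4 (log2 0.80) and Mcam (log2 0.27). The sums of this list were 39620 to 50558 and 43884 to 47311. Without si-NC replicate 1, 2 of this list passed as higher and 3 as lower. In the same fit 1 chondrocyte marker passed as higher and 1 as lower, and 1 Schwann cell marker passed as lower. Of all genes, 5.67% passed there as higher and 4.41% as lower. Schwann cell markers summed to 302 to 356 and 229 to 271 and mesothelial markers to 546 to 558 and 510 to 537, with 1 gene of each at an unadjusted p under 0.05. Of the cardiomyocyte, macrophage, Schwann cell and mesothelial lists, 0 genes passed edgeR's quasi-likelihood test or DESeq2's Wald test, while edgeR's exact test called 1, in the Schwann cell list. The part of any of these cells in the collagen values was not tested.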
